A study of Mus musculus with 24 samples.

Results

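The mitochondrial ribosomal protein genes were followed in 3 tissues, cerebellum, liver and testes, taken from mice without Thumpd1 (KO) and from wild-type controls (WT). Members were all genes of the deposited count table whose symbol is Mrpl or Mrps followed by a number and at most 1 further letter. This gave 78 of 55450 genes, 49 with an Mrpl symbol and 29 with an Mrps symbol. All 78 were protein coding and passed the filter on low counts in every tissue, so none was left untested. Pseudogenes that carry such a symbol with a suffix were not members. By structure 51 members belong to the large subunit and 26 to the small subunit. Mrps30 and Mrps18a are large subunit proteins despite their symbols, and Mrps36, now assigned to the 2-oxoglutarate dehydrogenase complex, was kept apart.

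The mitochondrial ribosome joins rRNAs encoded by mitochondrial DNA with proteins that are all encoded in the nucleus, made in the cytosol and imported. It translates the few respiratory chain subunits that mitochondrial DNA encodes. Of the members, 47 have a bacterial counterpart and 30 are specific to mitochondria. Thumpd1 is the adaptor through which Nat10 acetylates cytosolic leucine and serine tRNAs.

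The KO mice carried a CRISPR-Cas9 deletion in Thumpd1, made in C57BL/6N eggs and kept on a C57/BL6 background, and the WT mice were controls, mostly littermates of matched age. Animals were 6 to 12 weeks old and of either sex, with testes from males only, and no other allele or treatment is labelled. Each genotype and tissue had 4 libraries, numbered 1 to 4 for WT and 5 to 8 for KO, 24 in all. Neither the founder line nor the animal behind each library is given in the sources used here, so p-values measure the spread between these libraries. Whole tissue was used, so fewer cells of a type and less RNA per cell cannot be told apart.

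Libraries held 16353797 to 37889615 counts, of which members took 0.136% to 0.171%, and a single member had from 46 counts (Mrps28) to 3421 counts (Mrpl12). Levels below are CPM, counts scaled to a common library size, with TMM factors over all 24 libraries unless another scale is named. Thumpd1 averaged 16.6 CPM in WT cerebellum, 15.9 CPM in WT liver and 22.4 CPM in WT testes. KO libraries had 0 to 2 Thumpd1 counts (cerebellum), 0 to 4 (liver) and 23 to 41 (testes). Libraries with neighbouring numbers were alike: in each of the 6 groups the pair with the smallest spread of log2 differences over genes was 1 and 2, 3 and 4, 5 and 6, or 7 and 8. Not all such pairs were close: WT testes 1 and 2 were the least alike of their group, and WT liver 3 and 4 were less alike than 1 and 3. Summed hepatocyte markers in cerebellum followed the pairs, at 693 and 716 CPM in WT 1 and 2, 6.47 and 5.60 CPM in WT 3 and 4, 9.95 and 8.79 CPM in KO 5 and 6, and 239 and 235 CPM in KO 7 and 8. WT liver library 4 held 3716 CPM of mitochondrial rRNA against 161 to 310 CPM in the other WT livers. Why neighbouring libraries were alike is not given in the sources used here. When they were summed, leaving 2 against 2, few genes passed at all: 0 members in any tissue, and of all genes 0.296% (cerebellum), 0.078% (liver) and 0.00517% (testes). Exons of another gene overlap those of 33 of the 78 members, on the other strand for 28 and on the same strand for 8. The strand setting of the counting is not given in the sources used here, so reads of these members and of the overlapping genes cannot be told apart.

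Promoters were read for letters bound by factors known to act on such genes. A promoter was the 300-base window around the RefSeq start site (build GRCm38.p6), and 69 of the 78 members had one. The NRF1 letters GCGCATGCG were found, on either strand, in 7 member promoters (10.1%) and in 1.95% of the promoters of all 27025 genes. The YY1 letters AAGATGGC were in 12 (17.4%) against 3.19%, and the ETS letters CCGGAAGT, which GABP binds, in 12 (17.4%) against 4.31%. At least 1 of these 3 was present in 29 member promoters (42.0%) and in 8.94% of all. The GC box GGGCGG was in 49.3% against 38.2%, the E-box CACGTG in 7.25% against 8.09%, and the ATF4 element TGATGNAAT in 0 members against 1.08%. These windows were rich in G and C, with a median of 58.0% in members and 52.8% in all genes. A match describes letters only. Of the members that passed the test in a KO comparison, 6 had a promoter entry and 0 of them held the NRF1, YY1 or ETS letters. The stretches printed here come from 4 members named below for their tissue levels and from Mrps11, which starts within another member. Each reads 5′ to 3′ along its gene, with the matched letters, or their reverse complement, in capitals.
Mrpl39 (NRF1, chr16:84735349-84735378, minus strand): aggagaggcgCGCATGCGCccccgcgtggc
Mrps18b (NRF1, chr17:35916645-35916674, minus strand): aacggcccgaCGCATGCGCactgggagcac
Mrpl48 (ETS, chr7:100583147-100583176, minus strand): gggttttaaaaACTTCCGGaaccaagatgc
Mrpl3 (ETS, chr9:105053238-105053267, plus strand): tgagaaacggaCCGGAAGTggcccggctgt
Mrps11 (YY1, chr7:78783013-78783042, plus strand): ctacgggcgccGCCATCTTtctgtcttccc
Mrps11 lies head to head with Mrpl46, another member, and the 2 genes overlap by 413 bases at their starts.

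Coding sequences were read for the amino acids whose tRNAs Thumpd1 helps to acetylate. Leucine codons made up a median of 10.1% of member codons (range 5.24% to 15.9%) against 10.2% over 21462 other genes. Serine codons made up 5.56% against 7.87%, and the lower quartile of the other genes was 6.47%. Member proteins were short, with a median of 194 codons against 393.

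In cerebellum, 0 of the 78 members passed an adjusted p of 0.05 for KO against WT in limma-voom, where 6.44% of the 16225 genes tested passed. An unadjusted p under 0.05 was reached by 15 members (19.2%) and by 24.2% of all genes. The members' median log2 change was 0.03, that of all genes was -0.01, and no member moved by more than 0.26. edgeR and DESeq2 also called 0, with 15 and 12 members at an unadjusted p under 0.05. Without KO library 6, Mrpl2 and Mrpl38 passed as higher, where 14.3% of all genes passed. The 15 members at an unadjusted p under 0.05 became 19 there and 6 without WT library 4, where 2.83% of all genes passed.

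Mrpl49, a large subunit protein specific to mitochondria, had the lowest p-value in cerebellum. It had 13.4, 13.0, 14.1 and 15.2 CPM in WT and 15.5, 15.9, 15.97 and 15.7 CPM in KO. Every KO library lay above every WT library, with a log2 change of 0.19 ± 0.06 (SE) and a limma adjusted p of 0.0903. Mrpl1, which in bacteria forms the stalk where tRNAs leave the ribosome, had 18.2, 17.7, 18.5 and 19.997 CPM in WT and 16.2, 16.8, 16.4 and 17.0 CPM in KO. Its KO libraries were all lower, with a log2 change of -0.16 ± 0.06 (limma adjusted p = 0.109). Groups did not overlap for 8 members, 3 higher (Mrpl49, Mrpl27 and Mrpl34) and 5 lower (Mrpl1, Mrpl19, Mrpl24, Mrps25 and Mrps36), and for 14.2% of all genes tested in cerebellum. Others of the 10 lowest p-values had log2 changes of 0.13 to 0.21 (Mrps5, Mrps17, Mrpl34, Mrpl27 and Mrps18b) or of -0.20 to -0.13 (Mrps36, Mrps35 and Mrpl48), and none passed. Of 15 midbrain markers 6 were tested and 3 passed as higher, and the summed level of all 15 was 69.8 to 76.6 CPM in WT and 81.6 to 96.3 CPM in KO. Of 10 markers of cerebellar granule and Purkinje cells, 1 passed as higher and 3 as lower, and their summed level was 4612 to 4858 CPM in WT and 4304 to 4595 CPM in KO. The part of the tissue's makeup in the members' values was not tested.

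In liver, 2 members passed as higher in KO and 0 as lower, where 5.91% of the 12816 genes tested passed. An unadjusted p under 0.05 was reached by 10 members (12.8%) and by 23.3% of all genes. The members' median log2 change was 0.02, with 33 members below 0. Leaving out 1 library at a time it ran from -0.01 (without WT 4, with 42 below 0) to 0.04 (without WT 2). Members at an unadjusted p under 0.05 then numbered 5 (without KO 5, 4.51% of all genes called) to 11 (without WT 4, 6.23%). The genes called were Mrpl50 and Mrps33, both specific to mitochondria.

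Mrpl50 (chr4:49512596-49521093, minus strand, build mm10) encodes a large subunit protein. It had 28.3, 28.6, 28.9 and 29.2 CPM in WT livers and 35.0, 36.2, 34.5 and 36.8 CPM in KO livers. The groups were tight and did not overlap, at 28.7 ± 0.385 and 35.6 ± 1.06 CPM (SD, n = 4). The log2 change was 0.36 ± 0.08 (limma adjusted p = 0.0224).

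Mrps33 (chr6:39801804-39810988, minus strand) encodes a small subunit protein. It had 16.2, 15.6, 14.9 and 16.2 CPM in WT and 22.9, 18.4, 19.0 and 21.2 CPM in KO. The KO libraries varied more but all lay above WT, with a log2 change of 0.40 ± 0.10 (limma adjusted p = 0.0489). Both calls were lost without WT library 1, WT library 2, WT library 3 or KO library 8, when 0 members and 2.28% to 3.66% of all genes passed. Without KO library 5 or KO library 6 only Mrpl50 passed, without KO library 7 Mrpl1 was added to them, and without WT library 4 both calls stood.

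Mrps18a, a large subunit relative of the small subunit proteins Mrps18b and Mrps18c, did not pass in liver. It had 38.6, 39.2, 34.1 and 27.8 CPM in WT and 22.8, 19.97, 32.7 and 28.9 CPM in KO (log2 change -0.34 ± 0.12, limma adjusted p = 0.121). The groups overlapped, and KO 5 and 6 lay below KO 7 and 8. Of 10 hepatocyte markers 2 passed as higher and 1 as lower in liver, with a median log2 change of -0.03. Summed hepatocyte markers in liver were 97118 and 96808 CPM in KO 5 and 6, 135265 and 144483 CPM in KO 7 and 8, and 87578 to 107071 CPM in WT, and their part in the members' values was not tested. Mrpl1 had 18.6, 19.3, 21.6 and 23.5 CPM in WT and 30.3, 25.9, 21.5 and 28.5 CPM in KO (log2 change 0.38 ± 0.15, limma adjusted p = 0.148). Here KO 7 alone fell within the WT range. Groups did not overlap for 10 members, 5 in each direction, and for 13.9% of all genes tested in liver. Others of the 10 lowest p-values there had log2 changes of 0.19 to 0.23 (Mrpl41, Mrpl15 and Mrps21) or of -0.18 to -0.14 (Mrpl49, Mrpl37 and Mrpl28), and none passed.

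In testes, 4 members passed as lower in KO and 1 as higher, where 20.5% of the 19329 genes tested passed. Most changes were negative: 55 of 78 had a log2 change below 0, and their median was -0.09 against 0.00 over all genes. An unadjusted p under 0.05 was reached by 21 members (26.9%) and by 37.0% of all genes. Groups did not overlap for 19 members lower and 2 higher in KO, and for 28.8% of all genes tested in testes. Against the median of all genes the members' median lay at -0.08 with TMM factors, median-of-ratios, upper quartile or library totals and at -0.09 with quantile normalization. Library totals moved the median of all genes to 0.07, with the members' own median at -0.01.

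**Figure D1:**
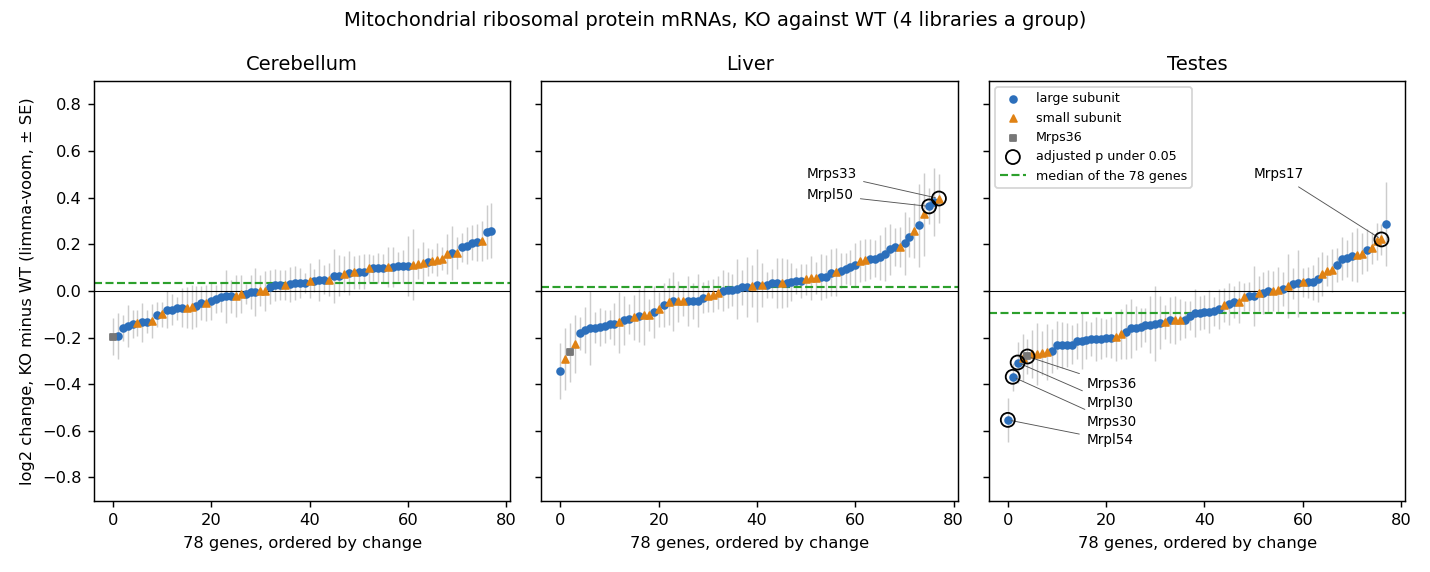
Log2 change, KO minus WT, of each of the 78 genes in cerebellum, liver and testes, ordered by size, with the standard error from limma-voom (4 libraries a group). The dashed line is the median of the 78 (0.03, 0.02 and -0.09), and circled genes, 0, 2 and 5 of them, passed an adjusted p of 0.05.

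Mrps30 (chr13:118378381-118387252, minus strand), specific to mitochondria, had the lowest adjusted p of any member. It had 28.3, 28.0, 28.6 and 28.9 CPM in WT testes and 21.8, 22.6, 21.5 and 20.1 CPM in KO testes. The groups lay far apart, at 28.5 ± 0.41 and 21.5 ± 1.03 CPM (SD, n = 4). The log2 change was -0.37 ± 0.06 (limma adjusted p = 0.0040). Exons of B430218F22Rik overlap it on the other strand, and it is the 1 member of the 7 past the threshold with such an overlap.

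Mrpl54 (chr10:81264713-81266934, minus strand), a large subunit protein specific to mitochondria, had the largest change of any member in the 3 tissues. It had 53.9, 59.5, 57.6 and 56.6 CPM in WT testes and 44.8, 38.4, 34.9 and 30.4 CPM in KO testes. No KO library reached the WT range, although KO libraries were spread, and the means were 56.9 ± 2.32 and 37.1 ± 6.07 CPM. The log2 change was -0.55 ± 0.09 (limma adjusted p = 0.0045).

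Mrps36 (chr13:100735955-100744659, minus strand) had 27.0, 26.5, 27.9 and 27.9 CPM in WT and 23.9, 23.2, 19.5 and 21.3 CPM in KO testes. Its KO libraries were all lower (log2 change -0.28 ± 0.07, limma adjusted p = 0.0233). Mrpl30 (chr1:37890477-37898535, plus strand), a large subunit protein with a bacterial counterpart, had 35.9, 35.5, 34.0 and 34.8 CPM in WT and 31.0, 29.9, 26.9 and 22.5 CPM in KO. Again the groups did not overlap, and KO 8 was lowest (log2 change -0.31 ± 0.09, limma adjusted p = 0.0317).

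Mrps17 (chr5:129715497-129722556, plus strand), a small subunit protein whose bacterial counterpart binds rRNA, passed in the other direction. It had 19.6, 21.3, 19.2 and 19.2 CPM in WT and 21.6, 21.99, 23.8 and 22.3 CPM in KO testes. The gap between the groups was narrow (log2 change 0.22 ± 0.07, limma adjusted p = 0.0360).

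**Figure D2:**
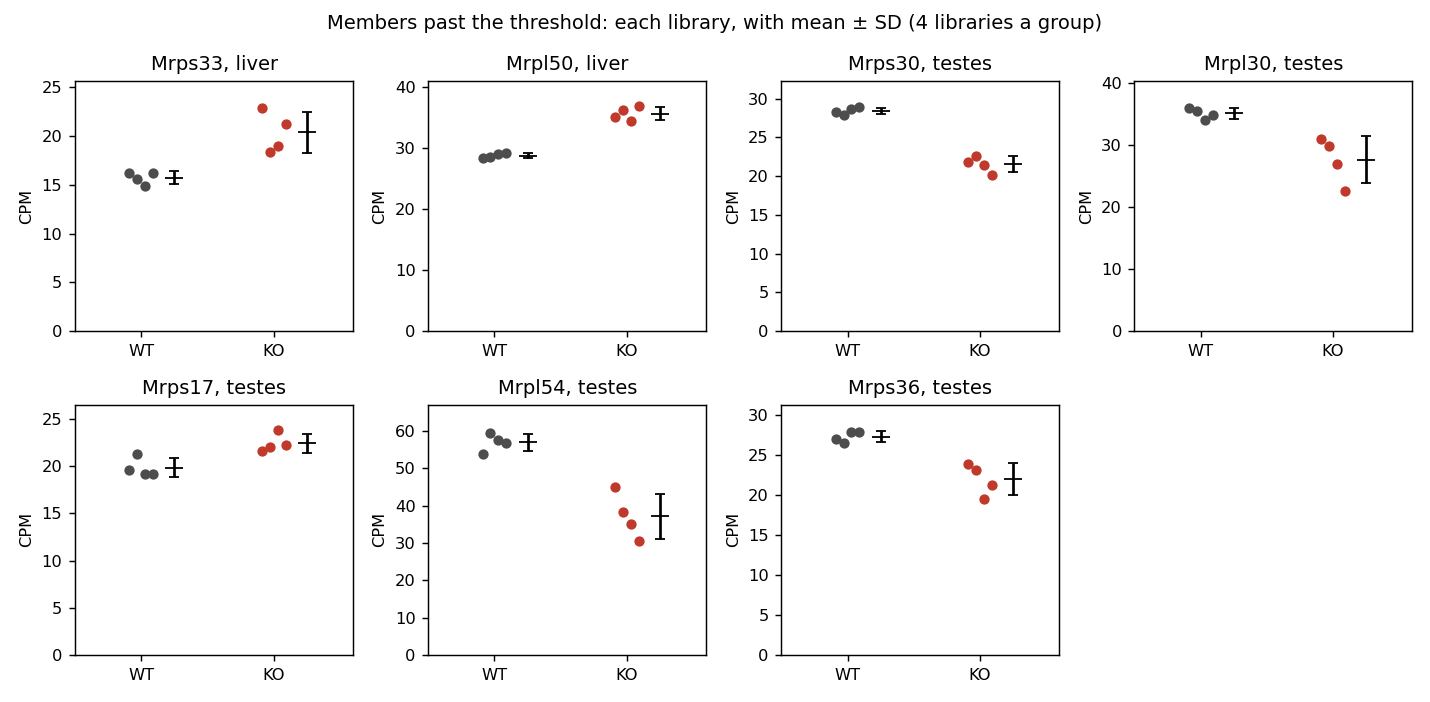
CPM of the 7 members past the threshold, each in the tissue where it passed, with 1 point for each library and the mean ± SD of 4 libraries beside the points. KO and WT points do not overlap in any panel, and Mrpl54 in testes shows the widest gap between means, 56.9 against 37.1 CPM.

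Mrps30 and Mrpl54 passed without each library in turn, whereas the other calls in testes moved with single libraries. Without WT 3 or WT 4 only those 2 passed as lower, where 9.01% and 9.03% of all genes passed. Without KO 5 there were 10 members called lower and 1 higher, where 25.5% of all genes passed, and without KO 6 there were 9 lower, where 21.8% did. Members at an unadjusted p under 0.05 numbered 30 without KO 5 and 10 without WT 4, in place of 21. Mrps17 was lost without WT 1, WT 3, WT 4, KO 6, KO 7 or KO 8, and Mrpl30 without any 1 of the 4 WT libraries or KO 7. KO 8 had the lowest summed level of members in testes, and without it the members' median was -0.06 and 49 of 78 were below 0. With neighbouring libraries summed, a step chosen after the data were seen, the log2 changes were -0.37 for Mrps30 and -0.55 for Mrpl54 in testes and 0.37 for Mrpl50 and 0.41 for Mrps33 in liver.

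By subunit, the median log2 change in testes was -0.12 over the 51 large subunit members, 39 of them below 0, and -0.02 over the 26 small subunit members, 15 of them below 0. The difference between subunits was not tested. By origin it was -0.09 for members with a bacterial counterpart and -0.10 for those specific to mitochondria. The next lowest p-values in testes were those of Mrps11 (-0.29), Mrpl45 (-0.21), Mrpl48 (-0.21), Mrps34 (-0.27) and Mrpl12 (-0.26), given as log2 changes, with limma adjusted p from 0.0617 to 0.0707. Mrpl12, which also binds the mitochondrial RNA polymerase, had 37.4, 41.5, 41.4 and 42.3 CPM in WT and 35.7, 36.5, 33.6 and 26.4 CPM in KO. Its KO libraries were all below WT, with KO 8 far lowest.

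Markers of testis cells moved with genotype as well, and their part in the members' changes was not tested. Of 12 round spermatid markers 6 passed as lower, with summed levels of 1332 to 1378 CPM in WT and 1194, 1215, 988 and 1008 CPM in KO 5 to 8. Of 10 elongating spermatid markers 5 passed as lower, at 12402 to 13334 CPM in WT and 8172 to 10928 CPM in KO. Of 14 Sertoli cell markers 11 passed as higher, at 1182 to 1344 CPM in WT and 1438 to 1900 CPM in KO. Of 10 spermatocyte markers 0 passed in limma, at 892 to 986 CPM in WT and 823 to 984 CPM in KO.

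No member passed in more than 1 tissue, where 2.67% of the 11112 genes tested in all 3 tissues did. In all, 7 members passed in 1 tissue, where 27.1% of those genes passed in at least 1. Another 42 members had no unadjusted p under 0.05 in any tissue, and 39.2% of those genes had none. Mrpl3, Mrpl44, Mrps2, Mrps7, Mrps14 and Mrps22, in which human variants impair mitochondrial translation, did not pass, with log2 changes from -0.26 (Mrps22 in testes) to 0.13 (Mrps7 in cerebellum). Mrpl58, a peptide release factor built into the ribosome, had a log2 change of -0.10 in cerebellum, -0.12 in liver, then -0.14 for testes. Mrps18c had -0.07, 0.33 and 0.02 in the same order.

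The KO change was compared between tissues in 1 limma-voom fit with TMM factors over the 24 libraries, on the 11112 genes expressed above the count filter in each tissue. Each pair of these comparisons shares the libraries of 1 tissue. Between testes and liver 12 members (15.4%) differed, 11 of them lower in testes, where 15.9% of all genes differed. Between testes and cerebellum 7 members (8.97%) differed, all lower in testes, against 14.5% of all genes. Between cerebellum and liver 3 members (3.85%) differed, against 7.67% of all genes.

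For testes minus liver, the log2 change of Mrpl54 differed by -0.67 ± 0.14 (SE, limma adjusted p = 0.0026) and that of Mrps30 by -0.43 ± 0.09 (limma adjusted p = 0.0033). In liver Mrpl54 had 24.4 ± 2.84 CPM in WT and 23.95 ± 1.89 CPM in KO, and Mrps30 had 33.8 ± 3.34 and 32.7 ± 3.04 CPM (SD, n = 4). These liver means lay within the spread of their libraries. Mrpl1 differed by -0.67 ± 0.16 (limma adjusted p = 0.0075), Mrpl41 by -0.48 ± 0.11 (limma adjusted p = 0.0062) and Mrpl30 by -0.43 ± 0.11 (limma adjusted p = 0.0095). Mrpl41 averaged 20.7 ± 0.59 CPM in WT and 17.7 ± 2.2 CPM in KO testes, with 15.4 ± 1.04 and 17.7 ± 0.377 CPM in liver, and passed in neither tissue alone. Mrpl49 was the member with a higher KO change in testes than in liver, by 0.32 ± 0.10 (limma adjusted p = 0.0250), a call lost with quantile normalization over all libraries and without testes WT 4 or testes KO 7. Without testes KO 7 the members lower in testes than in liver numbered 7 in place of 11, and the share of all genes was 11.1% in place of 15.9%.

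For testes minus cerebellum, Mrps30 differed by -0.41 ± 0.09 (limma adjusted p = 0.0064). Mrpl34 differed by -0.46 ± 0.13, Mrpl38 by -0.34 ± 0.10, Mrpl30 by -0.40 ± 0.12 and Mrpl41 by -0.35 ± 0.11, with limma adjusted p from 0.0186 to 0.0344. With quantile normalization 3 of the 7 calls remained, those of Mrps30, Mrpl34 and Mrps34. The 7 became 3 or 4 without any 1 of cerebellum WT 1, WT 3, KO 5, KO 7 or KO 8 or of testes WT 2, WT 3, WT 4, KO 7 or KO 8, and 11 without testes KO 5 or KO 6, where 17.1% and 16.7% of all genes differed. For cerebellum minus liver, Mrpl50 differed by -0.43 ± 0.10 (limma adjusted p = 0.0073), Mrpl49 by 0.37 ± 0.09 (limma adjusted p = 0.0162) and Mrpl34 by 0.38 ± 0.11 (limma adjusted p = 0.0338). The call of Mrpl34 was lost with quantile normalization and without any 1 of cerebellum WT 1, WT 3, WT 4, KO 6 or KO 7 or of liver WT 1, KO 5 or KO 8. Without liver WT 4 there were 5 members higher in place of 2 and 2 lower in place of 1, and without liver KO 7 there were 3 of each. The share of all genes also moved when 1 library was left out, so these counts were not read as a result about the members. Mrpl49 had 29.3, 29.6, 27.6 and 28.3 CPM in WT and 21.8, 24.6, 25.8 and 25.3 CPM in KO livers. Its KO livers were all below WT, the opposite order to that in cerebellum.

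**Figure D3:**
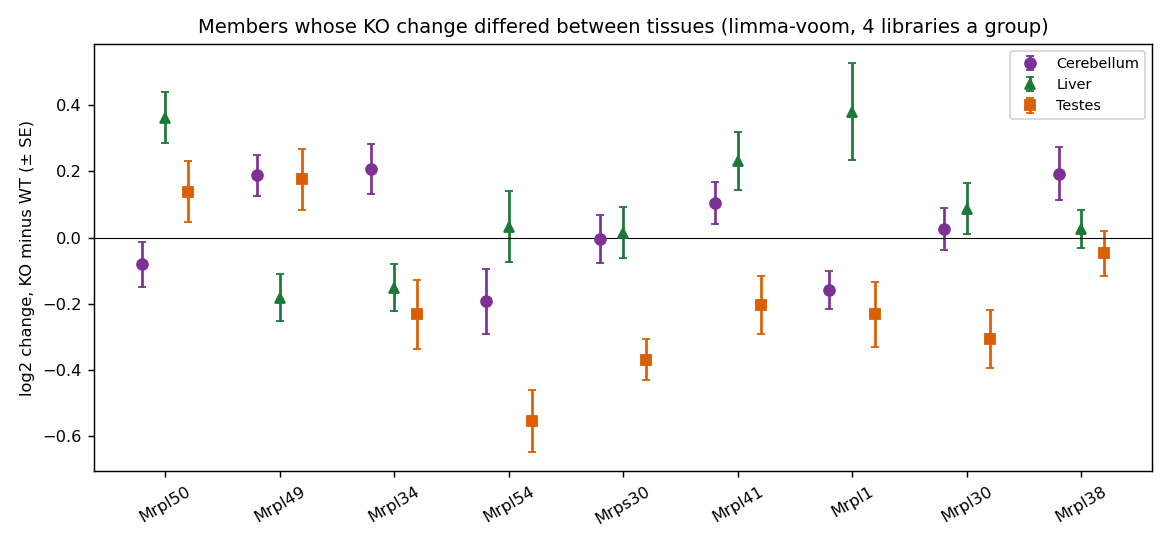
Log2 change, KO minus WT, of the 9 members named for a difference between tissues, from the limma-voom fit of each tissue (points, with SE as bars, 4 libraries a group). Mrpl54 sits at -0.55 in testes and 0.03 in liver, and Mrpl49 at -0.18 in liver and 0.19 in cerebellum.

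The summed level of the 78 genes was 1042 ± 11.2 CPM in WT and 1058 ± 16.1 CPM in KO cerebellum. It was 2564 ± 186 and 2476 ± 118 CPM in liver and 1476 ± 16.4 and 1331 ± 108 CPM in testes (SD, n = 4). In testes the KO libraries, at 1423, 1402, 1313 and 1186 CPM, lay below the 4 WT libraries, while the genotypes overlapped in cerebellum and liver. The median over members of the log2 difference from the WT mean separated the testes groups less. With TMM factors within testes it was -0.016, 0.003, -0.012 and -0.150 in KO 5 to 8, against -0.022 to 0.021 in WT. With quantile normalization it was -0.026, -0.011, -0.088 and -0.187, against -0.022 to 0.012. As a share of all counts, a scaling that shifts all genes alike, members took 0.164% to 0.167% in WT testes and 0.170%, 0.171%, 0.168% and 0.147% in KO 5 to 8, so there the groups were not separated in this direction.

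**Figure D4:**
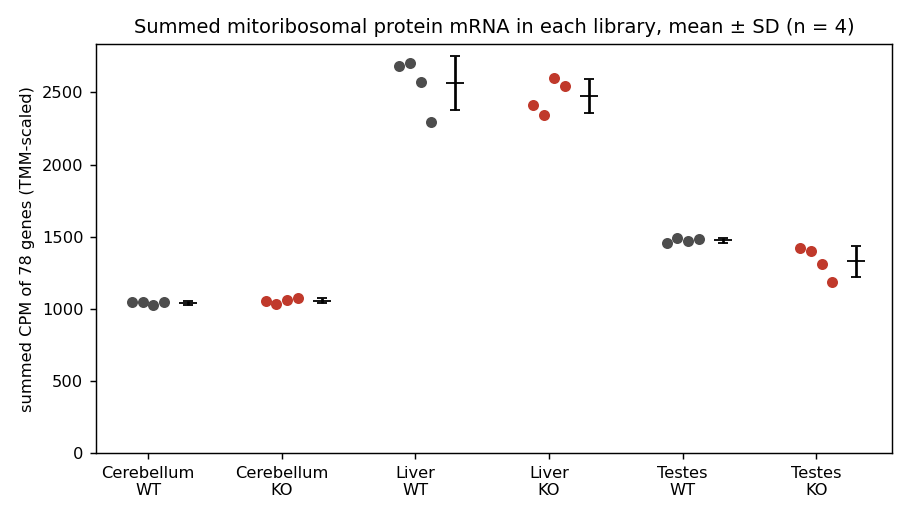
Summed CPM of the 78 genes in each of the 24 libraries, scaled with TMM factors over all libraries, with the mean ± SD of 4 libraries beside the points. Liver libraries sit between 2298 and 2702 CPM, cerebellum libraries between 1025 and 1075 CPM, and the KO testes libraries, from 1186 to 1423 CPM, sit below the WT ones.

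Among WT tissues most members differed, as most genes did. For cerebellum against liver 3 members were higher and 69 lower (85.3% of all 22678 genes tested passed), and 2 and 48 by at least 1 on the log2 scale (59.4% of all). For testes against liver 11 were higher and 54 lower (89.7%), and 4 and 38 at that size (73.2%). For testes against cerebellum 44 were higher and 23 lower (89.3%), and 21 and 7 at that size (71.1%). Without regard to the test, 72 members were below 0 for cerebellum minus liver with TMM factors and 71 to 73 with median-of-ratios, upper quartile or quantile scaling. For testes minus liver 58 were below 0 with TMM factors and 58 to 65 with those 3 scalings, and for testes minus cerebellum 49 were above 0 and 44 to 52. Library totals alone gave near even splits against liver, with 41 and 40 below 0, and 43 above 0 for testes minus cerebellum. In the contrasts with liver the members' median lay below that of all genes under each of 5 scalings, by a log2 difference of -1.33 to -1.08 for cerebellum and -1.89 to -0.96 for testes. Levels in CPM below are on the TMM scale, and the log2 difference of a member from the members' own median is given with its range over those scalings.

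Mrpl14, a large subunit protein at the interface with the small subunit, set liver apart most. It had 64.6, 62.7, 63.9 and 58.9 CPM in WT liver, 4.46, 4.56, 4.42 and 4.36 CPM in cerebellum, and 2.63, 2.82, 1.85 and 2.36 CPM in testes. The 3 tissues did not overlap, and the highest was 25.9 times the lowest, the widest ratio of any member on this scale. Against the members' median it lay at -2.62 to -2.55 for cerebellum minus liver and at -4.84 to -3.81 for testes minus liver. Exons of Tmem63b overlap it on the other strand.

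Mrpl12 had 140 ± 13.1 CPM in liver, 40.7 ± 2.18 CPM in testes and 15.6 ± 1.3 CPM in cerebellum (SD, n = 4), and lay at -1.98 to -1.64 against the members' median for cerebellum minus liver. Mrps18b, Mrpl52 and Mrps24 were also low in cerebellum relative to liver, at 7.26, 4.63 and 7.59 CPM against 57.8, 36.4 and 57.3 CPM. Against the members' median these 3 lay at -1.80 to -1.70, -1.79 to -1.78 and -1.72 to -1.62. In testes the members lowest relative to liver, besides Mrpl14, were Mrps24 (4.93 CPM), Mrpl34 (6.07 against 45.4 CPM), Mrps7 (11.5 against 73.9 CPM) and Mrpl23 (2.16 against 13.3 CPM). Against the members' median for testes minus liver they lay at -2.97 to -2.64, -2.23 to -2.01, -1.78 to -1.65 and -3.12 to -1.72 in that order. Exons of Urgcp share the strand of Mrps24, so its level is uncertain.

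Mrpl54 stood high in testes, with 56.9 ± 2.32 CPM in WT testes, 24.4 ± 2.84 CPM in liver and 5.25 ± 0.31 CPM in cerebellum. It lay 3.10 to 3.28 above the members' median for testes minus cerebellum. Mrpl39, which is related in sequence to threonyl-tRNA synthetase, had 59.1 ± 3.2 CPM in testes, 19.7 ± 1.13 CPM in liver and 8.37 ± 0.315 CPM in cerebellum. Mrpl47 had 36.7 ± 1.51 CPM in testes against 8.72 ± 1.86 CPM in liver and 10.1 ± 1.15 CPM in cerebellum. Mrps36 had 27.3 ± 0.706, 9.25 ± 0.943 and 8.48 ± 0.384 CPM in that order. Mrpl20 had 24.7 ± 1.97, 16.1 ± 1.5 and 6.01 ± 0.433 CPM in testes, liver and cerebellum, and lay 1.70 to 1.87 above the members' median for testes minus cerebellum. For testes minus liver Mrpl39 lay 2.48 to 2.59 above the members' median, Mrpl47 2.87 to 2.99 and Mrps36 2.35 to 2.46.

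Mrps25, a small subunit protein specific to mitochondria, stood high in cerebellum. It had 33.6, 33.5, 38.1 and 34.8 CPM in WT cerebellum, 8.79, 9.73, 9.19 and 6.99 CPM in liver and 9.61, 9.10, 10.2 and 8.69 CPM in testes. Cerebellum lay above every other library while liver and testes overlapped, and for cerebellum minus liver the gene lay 3.15 to 3.20 above the members' median. Mrpl48 had 36.0 ± 0.965 CPM in cerebellum, 17.3 ± 2.37 CPM in liver and 18.6 ± 0.888 CPM in testes. Mrpl3 had 38.6 ± 1.76, 22.9 ± 1.96 and 21.2 ± 1.09 CPM in that order. For cerebellum minus liver they lay 2.25 to 2.40 and 1.94 to 2.15 above the members' median. Exons of Nr2c2 overlap Mrps25 and exons of Rab6a overlap Mrpl48 on the other strand. For testes minus cerebellum the lowest members were Mrpl23, Mrps35 (6.14 against 24.02 CPM), Mrps25, Mrpl58 (6.58 against 20.002 CPM) and Mrpl19 (7.38 against 18.2 CPM). Against the members' median these 5 lay at -3.78 to -2.47, -2.76 to -2.30, -2.52 to -2.23, -2.34 to -1.93 and -1.97 to -1.63.

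**Figure D5:**
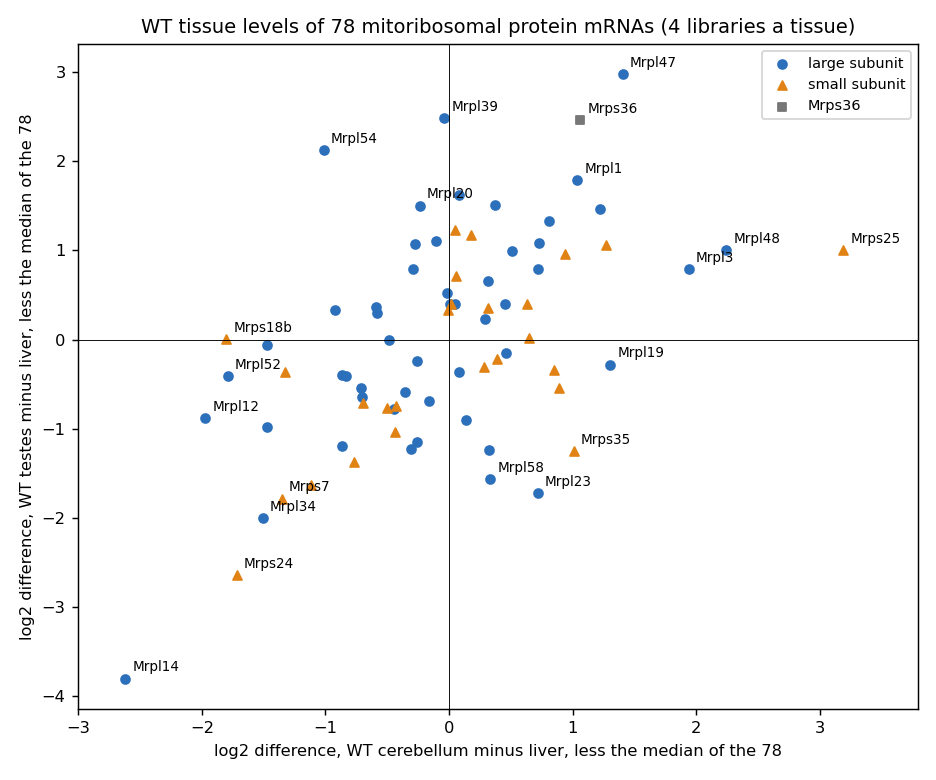
WT tissue levels of the 78 genes as log2 differences, cerebellum minus liver on the horizontal axis and testes minus liver on the vertical axis, each less the median of the 78 (TMM, 4 libraries a tissue). Mrpl14 lies at the lower left, Mrps25 at the far right, and Mrpl47, Mrpl39, Mrps36 and Mrpl54 at the top.

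On the TMM scale the highest WT tissue was liver for 56 members, testes for 18 and cerebellum for 4. It did not overlap with other tissues in 52, 12 and 3 of the 78 members, against 22.3%, 39.9% and 26.9% of all 22678 genes. Of all genes, 5856 were highest in liver, 5062 of them without overlap. Testes was highest for 9833 genes (9039 without overlap) and cerebellum for 6989 (6095 without overlap). The members' median ratio of the highest to the lowest tissue was 3.14, with 64 members at 2 or more and 5 under 1.5. Levels of different genes were compared per length, and the order depended on the length used. As CPM per kilobase of the principal transcript, the median was 7.67 for cerebellum, 18.9 for liver and 11.4 for testes. The 3 highest were then Mrps17 (29.6), Mrps21 (22.6) and Mrpl42 (22.1) in cerebellum, Mrpl12 (106), Mrpl14 (96.9) and Mrpl52 (87.1) in liver, and Mrpl54 (94.2), Mrpl24 (41.9) and Mrps36 (39.0) in testes. The 3 lowest on that transcript length were Mrpl17 (2.84), Mrpl47 (3.01) and Mrps28 (3.04) in cerebellum, Mrps25 (1.43), Mrpl47 (2.59) and Mrpl19 (3.35) in liver, and Mrps35 (1.47), Mrpl19 (1.48) and Mrps25 (1.55) in testes. As CPM per kilobase of all annotated exons of the gene, the 3 highest were Mrps21 (14.9), Mrpl41 (13.4) and Mrpl34 (11.5) in cerebellum, Mrpl12 (91.1), Mrpl34 (74.8) and Mrpl14 (65.9) in liver, and Mrpl54 (69.0), Mrpl12 (26.5) and Mrpl41 (23.4) in testes. On that length Mrps17 had 3.79 and Mrpl42 had 4.00 in cerebellum. Mrpl12 in liver and Mrpl54 in testes were highest, and Mrps25 in liver lowest (1.43 and 1.32), on both lengths.

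Other genes of mitochondrial translation were read in the same KO fits, in which 6.44% of all genes passed in cerebellum, 5.91% in liver and 20.5% for testes. Of 5 ribosome subunits with other symbols, Aurkaip1 passed as lower in testes (log2 change -0.30 ± 0.08, limma adjusted p = 0.0194). Of 28 assembly factors, C1qbp passed as lower in liver (-0.29), and Tfb1m, which methylates the small subunit rRNA, and Rpusd3 passed as lower in testes (-0.44 and -0.38). Of 15 translation factors, Mrrf, the recycling factor, passed as lower in testes (-0.36), and the release factor Mtrf1l and the elongation factor Guf1 as higher (0.40 and 0.31). Of 10 genes of mitochondrial DNA and RNA upkeep, Tfam, which packages mitochondrial DNA, passed as lower in testes (-0.40 ± 0.12, limma adjusted p = 0.0312). In cerebellum no gene of these 4 lists passed, and in testes each list's share of calls was below that of all genes.

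Of 76 nuclear respiratory chain subunits tested, 5 passed as higher and 1 as lower in cerebellum, 2 and 0 in liver, where 6.44% and 5.91% of all genes passed. Testes had 1 and 9, together a smaller share than the 20.5% of all genes, and a median log2 change of -0.11. Of 76 cytosolic ribosomal protein genes, 25 passed as higher and 0 as lower in cerebellum, with a median of 0.16. Liver had 8 and 0, and testes 1 and 2. The mitochondrial large subunit rRNA mt-Rnr2 passed as lower in KO cerebellum, with 79.5 ± 8.14 CPM in WT libraries and 53.4 ± 13.0 CPM in KO libraries (log2 change -0.60 ± 0.14, limma adjusted p = 0.0255). The library kit removes rRNA, so this level is what the removal left.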

How the data were processed

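Total RNA of mouse cerebellum, liver and testes (4 WT and 4 KO libraries each) was sequenced by the authors after rRNA removal with a stranded kit. The authors deposited 1 table of RSEM expected counts per gene, aligned with STAR to mm10 per the labels, with GENCODE M21 gene models. Tool versions and the strand setting of the counting are not given in the sources used here. Between 12.3% and 16.6% of a library's nonzero values were not whole, and these were rounded for the count tests.

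KO was compared with WT within each tissue with limma-voom (limma 3.58.1, edgeR 4.0.16, R 4.3.3) after quantile normalization. Genes needed at least 1 CPM in at least 4 of 8 libraries, and p-values were adjusted over all genes tested by Benjamini-Hochberg at 0.05. Tissues were compared in 1 fit over 24 libraries with TMM factors. edgeR's quasi-likelihood test and DESeq2 1.42.0 were among the alternatives. As a check of the code, the fits were run on simulated counts with changes of known size, and the outcome is not used here. Samples were grouped by labelled tissue and genotype.

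Genes named are the 10 lowest p-values per tissue, those past the threshold, up to 5 members per difference between tissues, the 5 members highest and lowest in each WT contrast, the 3 highest and 3 lowest per transcript length, and a fixed list of members with known roles. Mrpl2, the members without overlap, those named per length of all exons and those printed with a promoter stretch were chosen after their values were seen. The members and lists were chosen with earlier results of these data known. Promoter letters are from RefSeq (GRCm38.p6).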

Additional observations from a re-analysis of the deposited data

Results flagged for a closer look

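The summed level of the members in WT cerebellum library 3, 1025 CPM, stood apart from the other 3 WT libraries, at 1045 to 1048 CPM. It was 1 of 20 groups of 4 libraries looked at, and chance alone sets a library apart in about 1 of 20.

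The KO change of several members differed between tissues by the test of the difference itself, in limma over all genes. For cerebellum minus liver the log2 differences were -0.43 for Mrpl50, 0.37 for Mrpl49 and 0.38 for Mrpl34. For testes minus liver they were -0.67 for Mrpl54, -0.43 for Mrps30, -0.48 for Mrpl41, -0.67 for Mrpl1 and -0.43 for Mrpl30. For testes minus cerebellum they were -0.41 for Mrps30, -0.46 for Mrpl34, -0.34 for Mrpl38, -0.40 for Mrpl30 and -0.35 for Mrpl41.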

How the results depend on the processing

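Calls depended on the processing more than directions did, and the causes were not tested. In liver the 2 members higher became 1 with no filter on low counts, and the 0 lower became 1 with sample quality weights and 2 in one fit over all 24 libraries. With those weights 3 were higher, and the liver median was -0.01 with 45 members below 0, in place of 0.02 with 33. Of all genes, 13.3% passed in liver with weights, 16.9% in one fit and 1.87% with no filter, in place of 5.91%. In testes the 1 higher became 3 with DESeq2, 3 with sample weights, 3 in one fit over all libraries and 0 with no filter, and the 4 lower became 11 with weights, 16 in one fit and 2 with no filter. The share of all genes that passed in testes moved as well, from 20.5% to 26.1% with DESeq2, 31.6% with weights, 22.1% in one fit and 7.03% with no filter. With neighbouring libraries summed, chosen after the data were seen, 0 passed in each direction in liver and testes. With library totals the members' median in testes was -0.01 and that of all genes 0.07. For the KO change between tissues, quantile normalization gave 1 higher in place of 2 for cerebellum minus liver, 0 in place of 1 for testes minus liver, and 3 lower in place of 7 for testes minus cerebellum. edgeR gave 3 lower in place of 1 for cerebellum minus liver. The shares of all genes under these settings are not given here, so these counts were not read as a result about the members. In WT, quantile normalization gave 14 members lower by at least 1 in testes than in cerebellum in place of 7. For cerebellum minus liver in WT, Mrpl19 ranged from -0.030 without WT liver library 4 to 0.16 without WT liver library 1, and Mrpl47 turned to -0.11 with quantile normalization.

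The replicate block by library number across tissues gave 4 members higher and 3 lower for cerebellum minus liver, in place of 2 and 1. The share of all genes in that fit is not given here. Deviations of libraries with the same number correlated at -0.18 to 0.27, 5 of 24 over 0.1, so the numbers were not used to pair the samples. Whether libraries of 1 number come from 1 mouse is not given in the sources used here. WT and KO share no numbers within a tissue.

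Leaving out 1 library at a time gave 0 to 2 members higher and 0 lower in cerebellum, 0 to 3 and 0 in liver, and 0 to 1 and 2 to 10 in testes, where the share of all genes was 2.45% to 14.3%, 2.28% to 6.23% and 9.01% to 25.5%. For the KO change it gave 1 to 5 higher and 1 to 3 lower (cerebellum minus liver), 0 to 1 and 7 to 16 (testes minus liver), and 0 and 3 to 11 (testes minus cerebellum), with 4.93% to 11.1%, 11.1% to 21.2% and 9.83% to 17.1% of all genes. In WT, members differing by at least 1 numbered 1 to 2 higher and 48 to 49 lower, 4 and 37 to 41, and 21 and 7 in the same order.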
